A study of Mus musculus with 16 samples.

Results

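The *Hox* genes of paralog groups 4 and 5 are *Hoxa4*, *Hoxb4*, *Hoxc4* and *Hoxd4* of group 4 and *Hoxa5*, *Hoxb5* and *Hoxc5* of group 5, which are all the members of these groups in the mouse. They were taken by paralog group, by a rule that uses no measured value, though with earlier results of these data known, and are 7 of the 26411 genes with a row in the count files and 7 of the 39 *Hox* protein genes there. The RNA of 16 single mouse embryos, taken whole at embryonic day 9.5 (E9.5), had been sequenced, with 4 embryos of each of 4 genotypes. Wild type embryos were *Kat6a+/+Kat6b+/+*. *Kat6a-/-Kat6b+/+* embryos were homozygous for a *Kat6a* null allele in which several exons are deleted. *Kat6a+/+Tg(Kat6b)* embryos carried extra copies of the *Kat6b* gene with its own flanking sequence, on a bacterial artificial chromosome in a transgenic line from 1 founder. *Kat6a-/-Tg(Kat6b)* embryos had the null allele and the transgene together. All were on a hybrid FVB x BALB/c background, so every comparison is within that mixed background, and both sexes were present in each genotype. Litters 801 and 803 gave 1 wild type and 2 *Kat6a-/-Kat6b+/+* embryos each. The other 2 wild type embryos came from litters 2597 and 2598, 1 from each, together with 3 and 1 of the *Kat6a+/+Tg(Kat6b)* embryos. The *Kat6a-/-Tg(Kat6b)* embryos came from litters 483 and 498, which held no other genotype here, so that their genotype and their litter cannot be told apart.

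*Hox* genes encode homeodomain transcription factors that give the cells of the neural tube, somites and lateral mesoderm their position along the head-to-tail axis. They lie in 4 clusters, and the order of the genes along a cluster follows the order in which they are switched on and the position of their anterior expression limits. Groups 4 and 5 lie towards the anterior end. They are expressed from the caudal hindbrain and the cervical somites backwards, pattern the neck vertebrae and the upper thorax, and *Hoxa5* is also known for its part in lung development. KAT6A (MOZ) and KAT6B (QKF, MORF) are closely related histone lysine acetyltransferases that work in complexes with BRPF proteins, ING5 and MEAF6.

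Total counts per embryo ran from 14407277 to 45665680 with a median of 23042414. *Kat6b* stood at 46.2 ± 2.45 CPM (counts scaled to a common library size; mean ± SD over 4 embryos, as for all such values below) in wild type and 49.1 ± 2.03 CPM in *Kat6a-/-Kat6b+/+* embryos, and at 192 ± 29.7 CPM in transgenic embryos with *Kat6a* and 197 ± 4.92 CPM in those without it, as the transgene labels say. *Kat6a* stood at 199 ± 16.5 CPM in wild type and 202 ± 15.2 CPM in *Kat6a-/-Kat6b+/+* embryos. These counts cover the whole gene while the allele lacks part of it, so they check nothing about the *Kat6a* genotype.

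All 7 members passed the filter on low counts. Per length of transcript, as RPKM (CPM divided by the gene length in kilobases that the count files give), *Hoxd4* had the highest mean level in wild type embryos at 22.5 RPKM. *Hoxc4* followed with 16.5, *Hoxa5* with 15.1, *Hoxb4* with 10.7, *Hoxa4* with 8.99, *Hoxb5* with 8.47 and *Hoxc5* with 6.42 RPKM. The values of neighbours in this order did not overlap between *Hoxd4* and *Hoxc4*, *Hoxa5* and *Hoxb4*, and *Hoxb5* and *Hoxc5*, and overlapped for the other 3 pairs. No pair of neighbours passed a two-sided exact permutation test after adjustment over the 6 pairs, where the lowest adjusted p was 0.0571 and the smallest unadjusted p that 4 against 4 values allow is 0.0286. The test took the genes of a pair as separate groups although both were measured in the same embryos, and its smallest p leaves little room for adjustment. No conclusion on the order is drawn from it. In *Kat6a-/-Kat6b+/+* embryos the order was the same, but *Hoxd4* at 14.5 RPKM overlapped with *Hoxc4* at 12.9 RPKM. In *Kat6a-/-Tg(Kat6b)* embryos *Hoxa5* (17.2 RPKM) had a higher mean than *Hoxc4* (15.6 RPKM), with overlapping values. The deposited gene lengths are shorter than the union of annotated exons for 6 of the 7 genes, and RPKM levels set between genes depend on that choice.

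In the GRCm39 (mm39) genome the members lie at chr6:52166651-52168733 on the minus strand (*Hoxa4*), chr11:96209093-96212464 on the plus strand (*Hoxb4*), chr15:102927366-102945278 on the plus strand (*Hoxc4*) and chr2:74542273-74559523 on the plus strand (*Hoxd4*). The group 5 genes lie at chr6:52178734-52181567 on the minus strand (*Hoxa5*), chr11:96194162-96196947 on the plus strand (*Hoxb5*) and chr15:102875878-102925861 on the plus strand (*Hoxc5*). The start sites of the group 4 and group 5 genes are 12834 bases apart in the *Hoxa* cluster, 14755 in the *Hoxb* cluster and 20574 in the *Hoxc* cluster, and the *Hoxd* cluster has no group 5 gene. *Hoxd4* shares 13.1% of its exon bases with *Hoxd3* on the same strand and 11.7% with *Hoxd3os1* on the opposite strand. It also shares 38.9% on the same strand with *Gm28230*, an annotated protein-coding gene with no row in the count files. *Hoxb5* shares 9.48% with its antisense neighbour *Hoxb5os*, and *Hoxc5* shares 5.37% with *Hoxc10* on the same strand. The library kit does not keep the strand, and how reads in shared exons were assigned is not given in the sources used here, so the counts of *Hoxd4*, *Hoxb5* and *Hoxc5* are uncertain to that extent. *Hoxb4*, *Hoxc4* and *Hoxa5* share no exon base with another annotated gene, and *Hoxa4* overlaps on the opposite strand with *Gm29430*, which has no row in the count files.

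The promoters of *Hoxd4* and *Hoxc4*, the members whose RNA was lower in *Kat6a-/-Kat6b+/+* embryos, and of *Hoxb4*, a paralog whose RNA did not pass that test, are shown as the 250 bases before the RefSeq start site (RefSeq promoters of build GRCm38.p6, found again base for base in GRCm39). They lie at chr2:74552072-74552321, chr15:102942571-102942820 and chr11:96208843-96209092, all on the plus strand. For *Hoxd4* the RefSeq start site used, 74552322, is not the one taken from GENCODE, 74557418, while the start sites of *Hoxc4* and *Hoxb4* are the same in both. Each is written 5′ to 3′, with capitals at matches, on either strand, to a retinoic acid receptor binding motif, a CDX motif, the HOX core motif and the TATA box.
Hoxd4: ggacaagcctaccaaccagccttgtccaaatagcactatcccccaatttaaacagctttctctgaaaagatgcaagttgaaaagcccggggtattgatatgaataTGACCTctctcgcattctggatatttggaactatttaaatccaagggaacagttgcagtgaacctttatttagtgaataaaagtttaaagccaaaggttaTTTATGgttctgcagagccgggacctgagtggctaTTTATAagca
Hoxc4: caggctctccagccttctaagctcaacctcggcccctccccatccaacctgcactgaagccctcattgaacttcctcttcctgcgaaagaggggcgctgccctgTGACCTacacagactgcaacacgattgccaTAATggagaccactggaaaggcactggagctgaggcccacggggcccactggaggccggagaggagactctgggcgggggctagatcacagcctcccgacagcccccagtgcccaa
Hoxb4: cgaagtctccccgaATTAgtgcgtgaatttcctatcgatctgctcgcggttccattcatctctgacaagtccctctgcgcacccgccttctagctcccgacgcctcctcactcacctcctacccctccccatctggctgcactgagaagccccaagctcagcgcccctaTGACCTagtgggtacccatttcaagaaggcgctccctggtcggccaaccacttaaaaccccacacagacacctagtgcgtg

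The retinoic acid receptor motif AGGTCA was present in all 3 of these promoters, at 145 bases before the start site in *Hoxd4*, 146 in *Hoxc4* and 81 in *Hoxb4*, and 14.0% of the 32841 RefSeq mouse promoters of this length hold it. The CDX motif TTTATG occurred in *Hoxd4* at 45 bases before the start and is in 10.8% of promoters, and the TATA box letters TATAAA occurred in *Hoxd4* at 10 bases and are in 12.4%. The HOX core TAAT occurred in *Hoxc4* and *Hoxb4* and is in 54.9% of promoters. The composite PBX and HOX motif TGATNNAT was found in none of these 3 and is in 7.69% of promoters. These are matches of letters only. The *Hoxd4* promoter had 40.4% G and C and 3 CpG dinucleotides, lower than *Hoxc4* (62.0%, 8 CpG) and *Hoxb4* (58.0%, 14 CpG), against medians of 52.4% and 6 over all promoters. These values of *Hoxd4* hold for its RefSeq start site only. *Hoxa5* was the fourth member with an entry in the table, with 63.6% G and C, 28 CpG and 3 matches to TAAT. It had no match to AGGTCA, which was thus in 3 of the 4 members with an entry, nor to the other motifs. *Hoxa4*, *Hoxb5* and *Hoxc5* had no entry.

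Whether loss of KAT6A lowers the RNA of these genes was asked by comparing *Kat6a-/-Kat6b+/+* with wild type embryos. *Hoxd4* and *Hoxc4* were lower, by 34.8% and 21.6%, and the other 5 members did not pass the test. *Hoxd4* stood at 47.9, 54.6, 65.0 and 62.4 CPM in the 4 wild type embryos and at 38.7, 39.8, 34.0 and 36.2 CPM in the 4 *Kat6a-/-Kat6b+/+* embryos. Every *Kat6a-/-Kat6b+/+* embryo was below every wild type embryo, and the wild type embryos of litters 801 and 803, whose values come first, were lower than those of litters 2597 and 2598. The log2 fold change was -0.62 with a standard error of 0.0622 and a 95% interval from -0.75 to -0.49, and the false discovery rate was 4.13e-06 (FDR; edgeR quasi-likelihood test with Benjamini-Hochberg adjustment over the 15679 genes tested, with 2 surrogate variables, which are estimates of unwanted variation between libraries, as for every FDR below unless stated).

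*Hoxc4* stood at 33.2, 33.2, 33.8 and 30.7 CPM in wild type and at 22.0, 27.3, 27.1 and 25.9 CPM in *Kat6a-/-Kat6b+/+* embryos. The values did not overlap, and the first *Kat6a-/-Kat6b+/+* embryo was the lowest. The log2 fold change was -0.35 ± 0.0603 (standard error, FDR = 0.00284). Of the other group 4 genes, *Hoxb4* stood at 27.4 ± 1.12 CPM in wild type and 25.7 ± 1.75 CPM in *Kat6a-/-Kat6b+/+* embryos (log2 fold change -0.09, FDR = 0.457), and *Hoxa4* at 13.8 ± 2.01 and 13.1 ± 1.20 CPM (log2 fold change -0.07, FDR = 0.786). The values of both genes overlapped between the genotypes, and their 95% intervals, -0.21 to 0.02 for *Hoxb4* and -0.29 to 0.14 for *Hoxa4*, exclude a decrease as large as the estimate for *Hoxd4*.

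No group 5 gene passed the test. *Hoxa5* came nearest, at 24.2, 27.5, 28.2 and 23.8 CPM in wild type and 20.2, 24.0, 21.6 and 19.7 CPM in *Kat6a-/-Kat6b+/+* embryos (log2 fold change -0.28 ± 0.0759, FDR = 0.0632). Its ranges overlapped only through the second *Kat6a-/-Kat6b+/+* embryo, at 24.0 CPM against 23.8 CPM in the lowest wild type embryo. *Hoxb5* stood at 16.1 ± 1.80 and 14.3 ± 0.806 CPM (log2 fold change -0.14, FDR = 0.388), and *Hoxc5* at 17.5 ± 1.58 and 16.8 ± 0.547 CPM (log2 fold change -0.07, FDR = 0.747). Both overlapped between the genotypes.

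**Figure D1:**
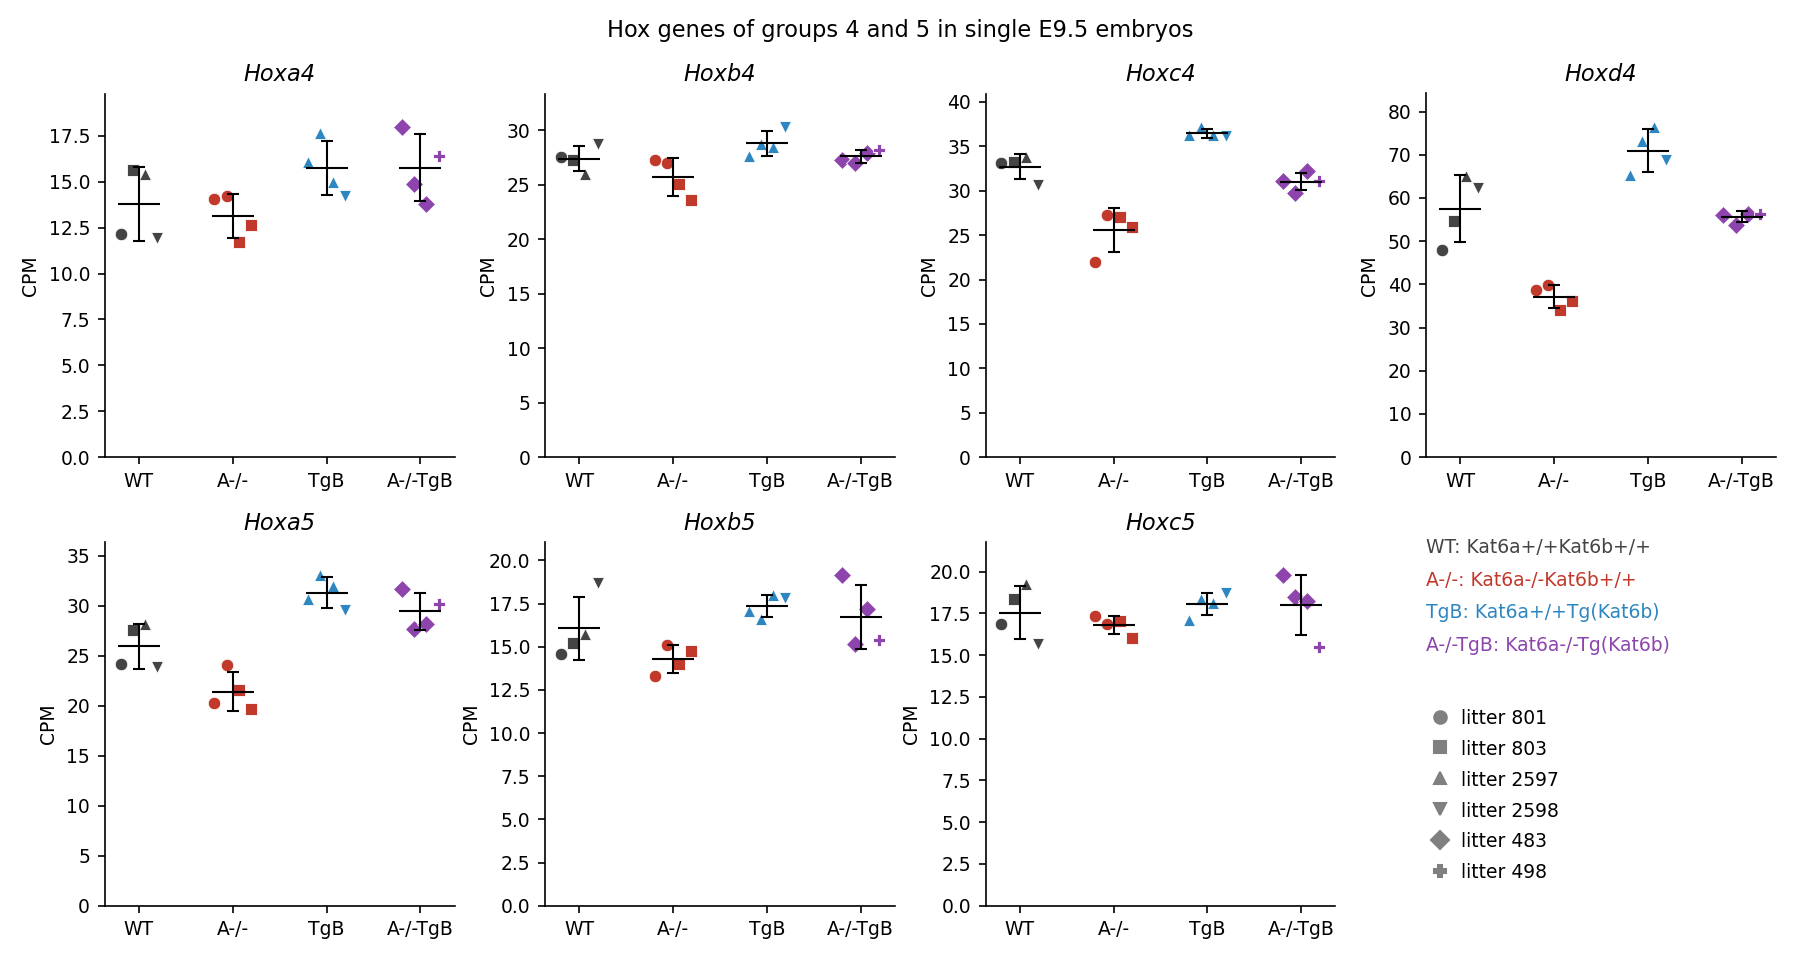
Level of each of the 7 genes in every embryo, in CPM on a linear axis from 0, by genotype (WT is *Kat6a+/+Kat6b+/+*, A-/- is *Kat6a-/-Kat6b+/+*, TgB is *Kat6a+/+Tg(Kat6b)* and A-/-TgB is *Kat6a-/-Tg(Kat6b)*), with the mean and SD of 4 embryos as a black line and bar and the litter as the marker shape. The 4 A-/- embryos lie between 34.0 and 39.8 CPM for *Hoxd4*, below all other embryos, while the genotypes overlap for *Hoxa4* and *Hoxc5*.

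Thus 2 of 7 members were called lower, where 0.938% of all tested genes were, and the same 2 had groups that did not overlap with *Kat6a-/-Kat6b+/+* below, where 4.01% of all tested genes had. All 7 estimates were below 0, with a median of -0.14 against 0.0033 over all tested genes. Within litters the direction could be read against 1 wild type littermate each. In litter 803 both *Kat6a-/-Kat6b+/+* embryos were below the wild type littermate for 7 of 7 members. In litter 801 both were below for 4 of 7 and both above for 1, *Hoxa4*. So few embryos often fall in such an order by chance, and the share over all tested genes was not counted. For *Hoxd4* the log2 difference from the littermate was -0.64 in litter 803 and -0.29 in litter 801. In litter 801 the wild type embryo was male and the *Kat6a-/-Kat6b+/+* embryos were female, so sex and genotype cannot be told apart there. All embryos of litter 803 were male. With litter as a term in place of the surrogate variables, over 12 embryos, this comparison rests only on litters 801 and 803, which hold both genotypes. The estimates were then -0.46 for *Hoxd4* (FDR = 0.0576) and -0.38 for *Hoxc4* (FDR = 0.132). Thus 0 of 7 members were called, with 18 genes called in all against 295 in the model with surrogate variables. In RNA from whole embryos, fewer cells expressing a gene and less RNA per cell cannot be told apart.

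The summed CPM of 8 hindbrain and spinal cord markers ran from 447 to 465 in wild type and from 426 to 441 in *Kat6a-/-Kat6b+/+* embryos. These ranges did not overlap, although none of the 8 passed the test (median log2 fold change -0.07). The highest expressed, *Sox2* and *Sox3*, made up most of the wild type sum together with *Sox1* and *Pax6* (means of 168, 88.0, 73.0 and 61.4 CPM). These 4 genes mark the neural tube more widely, so the sum is not specific to the hindbrain and spinal cord. The sums overlapped for 8 paraxial mesoderm and somite markers (218 to 241 against 212 to 222 CPM), of which *Uncx*, a gene of the caudal part of each somite, was lower (log2 fold change -0.34, FDR = 0.0136), and for 6 lateral plate, limb bud and foregut mesoderm markers (199 to 257 against 192 to 223 CPM), of which none passed, with *Prrx1* and *Hand2* the highest expressed. None passed among 6 tailbud markers (43 to 72 against 46 to 64 CPM, *T* and *Fgf8* the highest expressed) or 5 primitive blood markers (2945 to 4638 against 2477 to 4715 CPM, *Hbb-y* and *Hba-x* the highest). Of 6 visceral endoderm and yolk sac markers, 5 were tested and none passed, and the sum of the 6 was 12.5 to 51.9 CPM in wild type and 6.09 to 14.0 CPM in *Kat6a-/-Kat6b+/+* embryos. *Afp* made up most of that sum, with means of 30.2 and 5.10 CPM. With the transgene that sum was 3.38 to 44.7 CPM where *Kat6a* was intact and 34.3 to 48.3 CPM where it was not. No marker of these lists was at 0 in every embryo. The part of tissue composition in the levels of the 7 genes was not tested.

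The neighbours of the members along the clusters were lower in part. Of the 7 *Hox* genes next to them, 4 were lower in *Kat6a-/-Kat6b+/+* embryos: *Hoxa6* (log2 fold change -0.62, FDR = 0.001), *Hoxd3* (-0.44, FDR = 0.0032), *Hoxb3* (-0.39, FDR = 3.27e-06) and *Hoxc6* (-0.26, FDR = 0.0442). *Hoxb6* (-0.23), *Hoxa3* (-0.10) and *Hoxd8* (-0.07) did not pass. Over the 31 tested *Hox* genes outside groups 4 and 5, these 7 included, 7 were lower and none higher, with a median log2 fold change of -0.23. In the *Hoxb* cluster *Hoxb3* was lower while *Hoxb4*, which lies next to it, and *Hoxb5*, on the far side of *Hoxb4*, did not pass, and in the *Hoxc* cluster *Hoxc4* and *Hoxc6* were lower on either side of *Hoxc5*, which did not pass. The difference between neighbours was not itself tested here.

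Of 9 noncoding genes that lie among or across the members, 6 were tested, and 2 were lower in *Kat6a-/-Kat6b+/+* embryos. They were *Hoxb5os*, which overlaps *Hoxb5* on the opposite strand (log2 fold change -0.72, FDR = 7.03e-05), and *Hoxaas2* of the *Hoxa* cluster (log2 fold change -0.56, FDR = 0.0252). *Hoxb5os* thus passed the test where *Hoxb5*, with which it shares exon bases, did not.

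**Figure D2:**
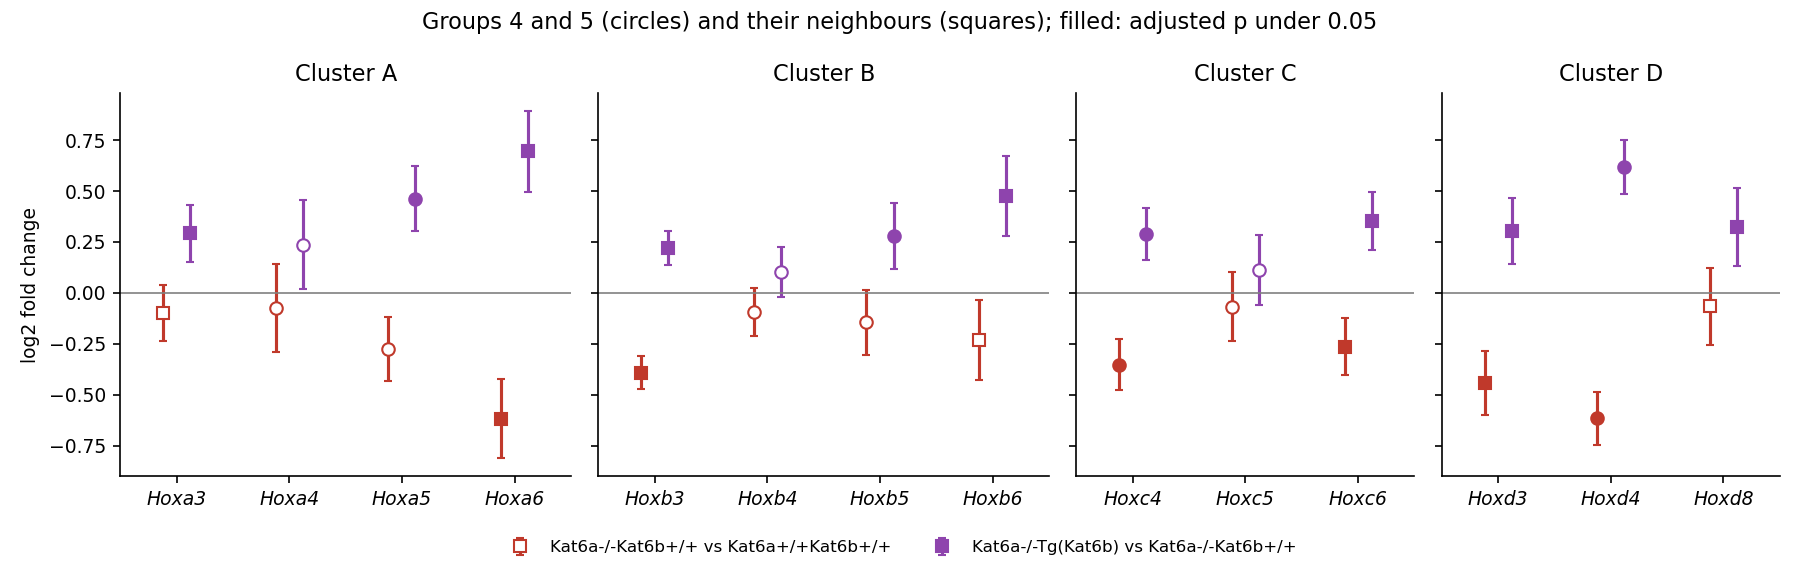
Log2 fold change of the members (circles) and their neighbours (squares) in each *Hox* cluster, for *Kat6a-/-Kat6b+/+* against wild type (red) and *Kat6a-/-Tg(Kat6b)* against *Kat6a-/-Kat6b+/+* (purple), with 95% intervals and filled symbols where the FDR was below 0.05. In the first comparison all estimates lie below 0, from -0.62 for *Hoxd4* and *Hoxa6* to -0.07, and in the second all lie above 0, from 0.10 for *Hoxb4* upwards. The 2 comparisons share the 4 *Kat6a-/-Kat6b+/+* embryos.

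Whether extra *Kat6b* changes these genes when KAT6A is absent was asked by comparing *Kat6a-/-Tg(Kat6b)* with *Kat6a-/-Kat6b+/+* embryos. Of the 7 members, 4 were higher with the transgene, namely *Hoxd4*, *Hoxa5*, *Hoxc4* and *Hoxb5*, where 3.39% of all tested genes were higher. The same 4 had groups that did not overlap, with the transgenic embryos above, where 7.29% of all tested genes had. *Hoxd4* stood at 56.1, 53.7, 56.3 and 56.4 CPM in *Kat6a-/-Tg(Kat6b)* embryos, all above the 39.8 CPM of the highest *Kat6a-/-Kat6b+/+* embryo. This was an increase of 53.5% (log2 fold change 0.62 ± 0.0637, FDR = 6.76e-06).

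*Hoxa5* stood at 31.7, 27.7, 28.1 and 30.1 CPM in *Kat6a-/-Tg(Kat6b)* embryos, each above the highest *Kat6a-/-Kat6b+/+* embryo at 24.0 CPM (log2 fold change 0.46 ± 0.0769, FDR = 0.00119). *Hoxc4* stood at 31.1, 29.7, 32.2 and 31.1 CPM, above the highest at 27.3 CPM (log2 fold change 0.29 ± 0.0622, FDR = 0.00843). *Hoxb5* stood at 19.2, 15.2, 17.2 and 15.4 CPM, the lowest of which was close to the highest *Kat6a-/-Kat6b+/+* embryo at 15.1 CPM (log2 fold change 0.28 ± 0.0776, FDR = 0.0321). The *Hoxb5* call was lost without surrogate variables (FDR = 0.144). The other 3 did not pass, with log2 fold changes of 0.24 for *Hoxa4*, 0.10 for *Hoxb4* and 0.11 for *Hoxc5*.

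All 7 neighbouring *Hox* genes were higher in the same comparison, as were 15 of the 31 other *Hox* genes with none lower. Of the noncoding genes, *Hoxb5os* (log2 fold change 0.62, FDR = 0.000335), *Hoxaas2* (0.53, FDR = 0.019) and *Mir10a* (2.76, FDR = 0.00972), a microRNA gene between *Hoxb4* and *Hoxb5*, were higher. *Mir10a* rested on few reads, with 0 to 6 counts per *Kat6a-/-Kat6b+/+* embryo and 8 to 19 per *Kat6a-/-Tg(Kat6b)* embryo. The summed paraxial markers did not overlap in this comparison, at 212 to 222 CPM without and 205 to 211 CPM with the transgene. The lateral plate, limb bud and foregut sums did not either, at 192 to 223 and 224 to 251 CPM. The same held for the visceral endoderm and yolk sac sums, at 6.09 to 14.0 CPM without and 34.3 to 48.3 CPM with the transgene. Most of the visceral endoderm and yolk sac sums was 1 gene, *Afp*, with means of 5.10 CPM without and 32.3 CPM with the transgene. The mean sums there were 9.57 and 39.9 CPM. Among the lateral plate, limb bud and foregut markers *Tbx4* (log2 fold change 1.02, FDR = 0.00924) and *Tbx5* (0.66, FDR = 0.0245) were higher. None of the 5 visceral endoderm and yolk sac markers tested was called. Of the 8 paraxial mesoderm and somite markers 5 had estimates below 0 (median -0.09), and *Meox1*, a somite gene, was lower (-0.21, FDR = 0.00397). *Afp*, *Tbx4*, *Tbx5* and *Meox1* are named after their values were seen. No marker of the hindbrain and spinal cord, tailbud or primitive blood lists was called. The part of these markers in the increase of the members was not tested.

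Against wild type, 0 of 7 members passed the test in *Kat6a-/-Tg(Kat6b)* embryos, where 0.67% of all tested genes did in either direction. At an unadjusted p under 0.05 there was 1 member, *Hoxa5*, where 12.7% of all tested genes stood. DESeq2 called none of the 7, and 241 genes in all. *Hoxd4* stood at 57.5 ± 7.75 CPM in wild type and 55.6 ± 1.26 CPM in *Kat6a-/-Tg(Kat6b)* embryos, with a log2 fold change of 0.0022 and a 95% interval from -0.13 to 0.14. *Hoxc4* stood at 32.7 ± 1.39 and 31.0 ± 1.00 CPM (log2 fold change -0.06, interval -0.19 to 0.07), and *Hoxa5* at 25.9 ± 2.23 and 29.4 ± 1.86 CPM (log2 fold change 0.19, interval 0.02 to 0.35, FDR = 0.317). These intervals exclude a decrease of the size estimated for *Hoxd4*, *Hoxc4* or *Hoxa5* in *Kat6a-/-Kat6b+/+* embryos, but they do not show that the levels were equal to wild type. The summed hindbrain and spinal cord markers (415 to 434 CPM) and paraxial markers (205 to 211 CPM) of *Kat6a-/-Tg(Kat6b)* embryos lay below the wild type ranges, and their part in these values was not tested.

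The effect of the transgene with *Kat6a* intact was read from *Kat6a+/+Tg(Kat6b)* and wild type embryos. None of the 7 members passed the test, where 0.14% of all tested genes did. At an unadjusted p under 0.05 there were 3 members, *Hoxd4*, *Hoxa5* and *Hoxc4*, where 11.5% of all tested genes stood. DESeq2 called 1 member, *Hoxd4*, with an FDR of 0.00629, but it called 203 of the 15679 tested genes, against 22 in the model as reported. *Hoxd4*, *Hoxa5* and *Hoxc4* had values in all 4 transgenic embryos above all 4 wild type embryos, where 1.62% of all tested genes had. *Hoxd4* stood at 65.3, 73.3, 76.5 and 68.9 CPM, the lowest of which was close to the highest wild type embryo at 65.0 CPM (log2 fold change 0.29 ± 0.0605, FDR = 0.0613). *Hoxa5* stood at 30.7, 33.0, 31.9 and 29.6 CPM against 28.2 CPM in the highest wild type embryo (0.27 ± 0.0749, FDR = 0.155), and *Hoxc4* at 36.3, 37.2, 36.2 and 36.1 CPM against 33.8 CPM (0.15 ± 0.0598, FDR = 0.316). Against the wild type littermate, the 3 transgenic embryos of litter 2597 were all above in 5 of 7 members and all below in 1, *Hoxc5*. The 1 transgenic embryo of litter 2598 was above in 6 of 7 and below in 1, *Hoxb5*. The share over all tested genes was not counted here either. With litter in the model, where the comparison rests only on litters 2597 and 2598, the *Hoxd4* log2 fold change was 0.14 ± 0.0852 (FDR = 0.999). The summed hindbrain and spinal cord markers of *Kat6a+/+Tg(Kat6b)* embryos, 469 to 515 CPM, lay above the wild type range, with none of the 8 called. The 11 trithorax genes and KAT6 partners summed to 1101 to 1165 CPM against 1182 to 1232 CPM in wild type, without overlap and with none called. The lower sum lay in *Kmt2a* (means of 92.7 against 130 CPM) and *Kmt2d* (87.7 against 127 CPM), named after their values were seen. The median log2 fold change of the list was -0.0013, and 5 of the 11 estimates were above 0. All 6 tailbud markers had estimates above 0 (median log2 fold change 0.28), and *T*, the mesoderm gene brachyury, was higher (0.59, FDR = 0.0423), as was *Cdx2* among the 11 *Hox* activators (0.51, FDR = 0.0423). The *T* values overlapped, at 16.7 to 21.5 CPM against 8.03 to 20.7 CPM in wild type. So did those of *Cdx2*, at 8.78 to 13.2 against 5.35 to 14.1 CPM. The part of these genes in the levels of the members was not tested.

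**Figure D3:**
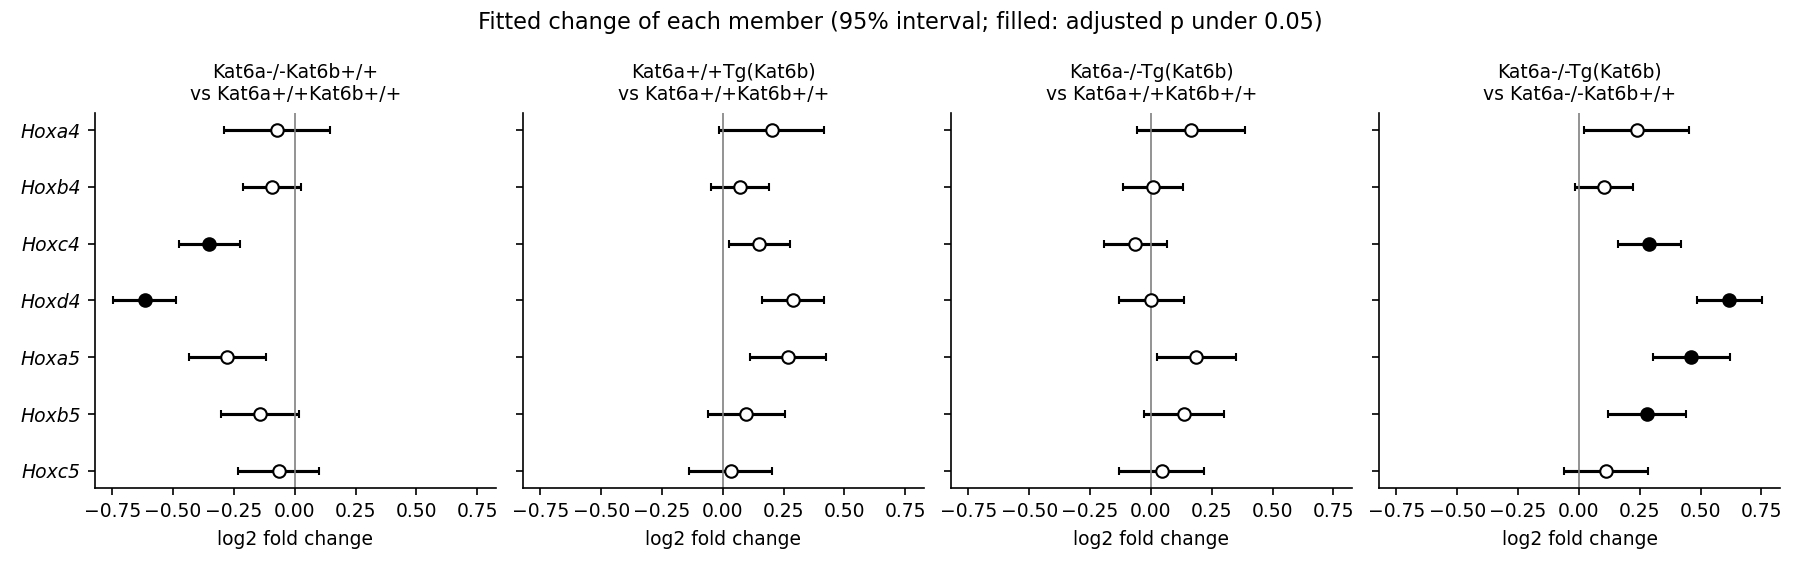
Log2 fold change of each of the 7 genes in 4 comparisons (WT, A-/-, TgB and A-/-TgB as in the plot of levels), with 95% intervals and filled symbols where the FDR was below 0.05. *Hoxd4* stands at -0.62 in A-/- against WT and at 0.0022 in A-/-TgB against WT, and *Hoxa4*, *Hoxb4* and *Hoxc5* have no filled symbol in any of the 4.

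Between the transgenic genotypes, *Hoxd4* was lower in *Kat6a-/-Tg(Kat6b)* than in *Kat6a+/+Tg(Kat6b)* embryos, by 18.0% (log2 fold change -0.29 ± 0.0657, FDR = 0.0213), which is 1 of 7 members where 1.14% of all tested genes were lower. *Hoxd4* and *Hoxc4* had groups that did not overlap, with *Kat6a-/-Tg(Kat6b)* below, where 4.37% of all tested genes had. *Hoxc4* had a log2 fold change of -0.21 (FDR = 0.0698). The *Hoxd4* call was lost when 1 embryo was left out in 5 of 16 cases: *Kat6a-/-Kat6b+/+* replicate 1, *Kat6a+/+Tg(Kat6b)* replicate 1 and *Kat6a-/-Tg(Kat6b)* replicates 2, 3 and 4, with FDR values of 0.0508 to 0.0681. *Hoxd3os1*, which overlaps *Hoxd4* on the opposite strand, was lower as well (log2 fold change -2.01, FDR = 0.0121). Its level was 1.15 ± 0.300 CPM where *Kat6a* was intact and 0.238 ± 0.156 CPM where it was not. The *Hoxd4* means were 71.0 and 55.6 CPM in the same order. The assignment of reads in their shared exons is not given, and its part in the *Hoxd4* difference was not tested. The summed hindbrain and spinal cord markers (415 to 434 against 469 to 515 CPM) and paraxial markers (205 to 211 against 227 to 242 CPM) were also lower in *Kat6a-/-Tg(Kat6b)* embryos without overlap. So were the summed primitive blood markers (3154 to 3840 against 4052 to 5074 CPM). The part of all these markers was not tested.

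Whether loss of KAT6A had a different effect with and without the transgene was tested as an interaction. None of the 7 members passed, where 0.153% of all tested genes did. Only 1 member, *Hoxd4*, stood at an unadjusted p under 0.05, where 14.6% of all tested genes stood. DESeq2 called none of the 7, and 133 genes in all. The interaction was 0.33 ± 0.0893 for *Hoxd4* (FDR = 0.131), that is, a log2 difference of -0.62 without the transgene and of -0.29 with it. All 7 interaction estimates were above 0, with a median of 0.14 against -0.00058 over all tested genes. Of the 31 other tested *Hox* genes 26 were above 0 as well, with a median over the 31 of 0.16.

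Because the members of a paralog group are known to share functions, their summed levels were also set side by side. The 4 group 4 genes summed to 58.6 ± 3.50 RPKM in wild type embryos and to 46.0 ± 2.19 RPKM in *Kat6a-/-Kat6b+/+* embryos. With the transgene the sums were 67.6 ± 2.37 RPKM where *Kat6a* was intact and 58.4 ± 1.66 RPKM where it was not. The 3 group 5 genes summed to 30.0 ± 1.65, 26.2 ± 1.41, 34.0 ± 0.824 and 32.6 ± 2.24 RPKM in the same order. *Hoxd4* made up 38.2% of the group 4 sum in wild type, with single embryos from 34.6% to 41.4%, and 31.5% in *Kat6a-/-Kat6b+/+* embryos, with single embryos from 29.9% to 32.9%. With the transgene its share was 41.0% where *Kat6a* was intact and 37.2% where it was not.

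The ratio of *Hoxb4* to *Hoxd4*, in RPKM, ran from 0.399 to 0.573 in wild type, from 0.650 to 0.736 in *Kat6a-/-Kat6b+/+* and from 0.485 to 0.501 in *Kat6a-/-Tg(Kat6b)* embryos. The wild type and *Kat6a-/-Kat6b+/+* ranges did not overlap. Of 24 such ratios between members compared between genotypes, 9 reached the smallest p that the two-sided exact permutation test allows, 0.0286, and none passed after adjustment over the 24, where the lowest adjusted p was 0.0762.

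**Figure D4:**
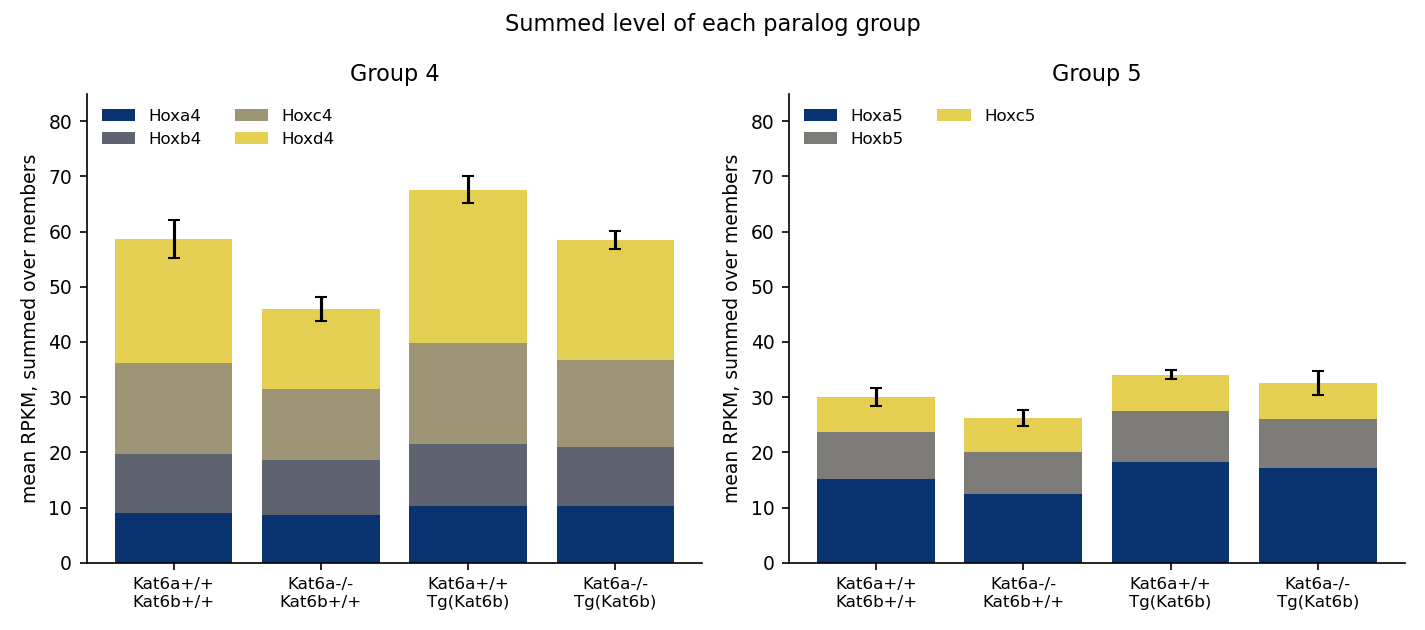
Summed level of the group 4 and the group 5 genes in each genotype, in RPKM, stacked by gene as the mean of 4 embryos with the SD of the sum as error bar. The group 4 sum is 58.6 in wild type and 46.0 in *Kat6a-/-Kat6b+/+* embryos, with the *Hoxd4* segment at 22.5 and 14.5.

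Genes that act on *Hox* clusters, or with *Hox* proteins, were read from lists. Of 11 *Hox* activators, 2 were lower in *Kat6a-/-Kat6b+/+* embryos, where the list's median log2 fold change was -0.11: *Cdx2*, a caudal-type homeobox activator of *Hox* genes (-0.42, FDR = 0.0433), and *Aldh1a2*, the enzyme that makes retinoic acid in the trunk (-0.27, FDR = 0.0014). The *Cdx2* values overlapped, at 5.35 to 14.1 CPM in wild type and 4.02 to 9.68 CPM in *Kat6a-/-Kat6b+/+* embryos. Those of *Aldh1a2* did not, at 69.8 to 78.4 and 59.2 to 65.3 CPM. In *Kat6a-/-Tg(Kat6b)* against *Kat6a-/-Kat6b+/+* embryos *Cdx2* was higher (0.66, FDR = 0.000829), as was *Cdx4* (0.60, FDR = 0.0449), named after its values were seen, while *Aldh1a2* had a log2 fold change of -0.01. The values of *Cdx2* and of *Cdx4* overlapped between these genotypes as well. *Aldh1a2* was also lower in *Kat6a-/-Tg(Kat6b)* than in wild type embryos (-0.28, FDR = 0.00444), where no member passed.

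Of 9 *Hox* protein cofactors, *Pknox1*, which binds DNA together with PBX proteins, was lower in *Kat6a-/-Kat6b+/+* embryos (log2 fold change -0.30, FDR = 0.0108; list median 0.04). Of 10 Polycomb genes, which keep *Hox* genes silent, *Bmi1* was higher (0.23, FDR = 0.00381; list median -0.04). None of 11 trithorax genes and KAT6 partners passed (list median -0.02), of which *Ash2l* and *Wdr5*, core subunits of histone H3 lysine methyltransferase complexes, were the highest expressed.

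Over the 16 embryos the members varied together to different degrees, as a description of embryos that share litters and genotypes. The 21 pairs of members had Pearson r from 0.18 to 0.87 with a median of 0.55 in log2 CPM, highest for *Hoxc4* and *Hoxd4*. After the genotype means were taken out, r ran from -0.37 to 0.76 with a median of 0.11. The genes outside the *Hox* clusters most like the mean of the 7 members, of 15631 compared, were *Gulp1* (r = 0.914), *Ovgp1* (0.911), *Irx3* (0.884), *1500004A13Rik* (0.880) and *Dlx2* (0.879), and 1 of these 5 was also among the first 5 once the genotype means were taken out. Their r within genotypes was 0.593, 0.818, 0.152, 0.557 and 0.449 in that order. No member passed an edgeR quasi-likelihood test between female and male embryos, fitted with genotype and without surrogate variables. *Hoxd4* had the lowest p in that test (0.0364 unadjusted), with a log2 difference of 0.11, higher in females, and an FDR of 0.998.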

How the data were processed

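RNA from 16 whole embryos was prepared by the authors with an unstranded TruSeq kit and sequenced in pairs, and reads were aligned with Rsubread to mm39, with featureCounts named in the submitters' processing notes. The deposited values are raw counts per gene, 1 file per embryo, with a gene length. The annotation, the strand setting and the treatment of reads shared by genes are not given in the sources used here. No 2 embryos of a genotype had counts that agreed within sampling noise.

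Groups were taken from the sample titles. Counts were tested with edgeR 4.0.16 (R 4.3.3) by the robust quasi-likelihood test over all 16 embryos, after filterByExpr (minimum count 10, total 15), TMM scaling (factors 0.985 to 1.02) and 2 surrogate variables from sva 3.50.0, with Benjamini-Hochberg adjustment over 15679 genes and a threshold of 0.05. Surrogate variables follow the study's methods and can absorb part of litter and sex. CPM and RPKM use TMM library sizes, and log2 CPM a prior count of 2. Alternatives were no filter, no surrogate variables, only the genotypes compared, and sex, litter or replicate number as a term. Further ones were DESeq2 1.42.0, its size factors in edgeR, limma-voom (limma 3.58.1), and leaving out each embryo. The tests were tried on simulated data. At these depths a member had at least 174 counts in each embryo, and genes at a few counts, such as *Mir10a*, are imprecise.

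Named genes were the 7 members, *Kat6a*, *Kat6b*, flanking *Hox* genes, noncoding genes between groups 3 and 6, up to 4 called genes of each list with the largest change in *Kat6a-/-Kat6b+/+* against wild type (or the 2 highest expressed), and the 5 genes most correlated with the members. The members and lists were chosen with earlier results of these data known. Exon overlaps used GENCODE M39 on GRCm39, and promoters the RefSeq table.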

Additional observations from a re-analysis of the deposited data

Results flagged for a closer look

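In 2 of 28 groups of 4 embryos, each being 1 member in 1 genotype, a single embryo stood apart from the other 3 by Dixon's criterion, which chance alone meets in about 1 in 20 groups. *Hoxc4* stood at 37.2 CPM in *Kat6a+/+Tg(Kat6b)* replicate 2, where the next highest embryo was at 36.3 CPM. *Hoxd4* stood at 53.7 CPM in *Kat6a-/-Tg(Kat6b)* replicate 2, where the next lowest was at 56.1 CPM. In both groups the other 3 embryos lay close together.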

How the results depend on the processing

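Of 1015 alternative estimates of the members' log2 fold changes, 953 kept their direction and side of the threshold, 17 lost a call, 10 gained one and 35 changed sign. Against wild type, *Kat6a-/-Kat6b+/+* embryos had 2 members called in the model as reported and 0 with litter as a term. In that fit the comparison rests only on the litters that hold both genotypes. *Hoxa5* was also called lower by DESeq2 (FDR = 0.0408), without wild type replicate 1 (FDR = 0.0497) and without *Kat6a-/-Kat6b+/+* replicate 2 (FDR = 0.0378). In *Kat6a+/+Tg(Kat6b)* against wild type, DESeq2 called 1 member, and leaving out 1 embryo gave 0 to 1, with *Hoxd4* called without *Kat6a+/+Tg(Kat6b)* replicate 4 (FDR = 0.0434). In *Kat6a-/-Tg(Kat6b)* against *Kat6a+/+Tg(Kat6b)*, 2 members (*Hoxc4* and *Hoxd4*) were called without surrogate variables, by DESeq2, with sex as a term and with only these genotypes, and 0 to 1 when 1 embryo was left out. In *Kat6a-/-Tg(Kat6b)* against *Kat6a-/-Kat6b+/+*, *Hoxd4*, *Hoxa5* and *Hoxc4* were called under every alternative and *Hoxb5* under 14 of 24. The causes were not tested.

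All changes of sign were of estimates near 0 that were not called. *Hoxd4* in *Kat6a-/-Tg(Kat6b)* against wild type was -0.0452 without surrogate variables, -0.0257 without the filter, -0.0420 with sex as a term, -0.0045 with the replicate block and -0.0428 with only these genotypes. In *Kat6a-/-Tg(Kat6b)* against *Kat6a+/+Tg(Kat6b)*, *Hoxa4* was 0.011, 0.012, 0.011 and 0.0088 without surrogate variables, with sex, with the replicate block and with only these genotypes, *Hoxb5* was -0.0543, -0.0548 and -0.0566 and *Hoxc5* -0.0073, -0.0086 and -0.0095 without surrogate variables, with sex and with only these genotypes. Leaving out 1 embryo gave -0.13 to 0.013 for *Hoxa4* in *Kat6a-/-Kat6b+/+* against wild type and -0.0293 to 0.0978 for *Hoxc5* in *Kat6a+/+Tg(Kat6b)* against wild type. It gave -0.0177 to 0.0283 for *Hoxb4*, -0.0706 to 0.0361 for *Hoxd4* and -0.0219 to 0.111 for *Hoxc5* in *Kat6a-/-Tg(Kat6b)* against wild type, -0.168 to 0.0209 for *Hoxa4*, -0.0547 to 0.0657 for *Hoxb5* and -0.0602 to 0.0733 for *Hoxc5* in *Kat6a-/-Tg(Kat6b)* against *Kat6a+/+Tg(Kat6b)*, and -0.0839 to 0.12 for the interaction of *Hoxa4*.

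Counts of calls over all genes moved from 295 to between 18 and 416 for *Kat6a-/-Kat6b+/+* against wild type, from 105 to between 72 and 241 for *Kat6a-/-Tg(Kat6b)* against wild type, from 22 to between 1 and 203 for *Kat6a+/+Tg(Kat6b)* against wild type, from 1119 to between 589 and 1306 for *Kat6a-/-Tg(Kat6b)* against *Kat6a-/-Kat6b+/+*, from 535 to between 265 and 880 for *Kat6a-/-Tg(Kat6b)* against *Kat6a+/+Tg(Kat6b)*, and from 24 to between 17 and 133 for the interaction, with all 16 embryos or, for litter, 12. Leaving out 1 embryo gave 137 to 432, 39 to 210, 1 to 108, 492 to 1671, 165 to 876 and 16 to 81 in the same order, and the shares of all genes printed beside the members move with these counts. Replicate numbers share only a number: of 24 same-numbered pairs 10 correlated above 0.1 (r from -0.26 to 0.22). With the replicate block 2, 0, 0, 4, 1 and 0 members were called, as without it. With the exon union as gene length, 19 of 28 levels in RPKM moved by more than 1 SD. Exact tests of ratios were not rerun with 1 embryo left out.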
